A study of Mus musculus with 10 samples.

Results

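The ephrins, semaphorins, Slits and netrins and their Eph, plexin, neuropilin, Robo and Unc5 receptors were followed through 6 lists of ChIP-seq peaks from mouse fetal liver (FL) erythroid cells. Members were autosomal protein-coding genes of the GENCODE M1 annotation (assembly NCBIM37, the assembly of mm9) whose symbol belongs to one of these 9 families. The rule found 65 members among 21327 autosomal protein-coding genes, 34 of them ligands and 31 receptors. Of 68 matching symbols, *Efnb1*, *Plxna3* and *Plxnb3* lie on the X chromosome and were not members. The symbols chose the members and no measured value did.

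Axon guidance ligands steer growing axons by attracting or repelling the growth cone. Ephrins are held on the membrane and signal to Eph receptor tyrosine kinases on the neighbouring cell, secreted and membrane-bound semaphorins act through plexins with neuropilins as co-receptors for many of the secreted ones, Slits repel through Robo receptors, and netrins repel through Unc5 receptors. Several of the same pairs also shape blood vessels. Many developmental regulators of this kind are known targets of Polycomb repressive complex 2 (PRC2), which places trimethylation on lysine 27 of histone H3 (H3K27me3), a mark of silenced promoters that in mammals is typically found at CpG islands. Mtf2, also called Pcl2, is an accessory protein of PRC2.

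The series compared H3K27me3 in wild-type (WT) and Mtf2-null (Pcl2 -/-) embryos at e14.5 and mapped Mtf2 in WT embryos only. FL cells were sorted into CD71+Ter119-/lo cells, called pro-erythroblasts here, and CD71+Ter119high cells, called erythroblasts here, with 500000 cells per sample. The animals were C57Bl/6, and the null allele came from EUCOMM gene-targeted C57Bl/6 ES cells aggregated with CD1 blastocysts. There were 10 libraries, 6 of them ChIP and 4 IgG controls, which gave 1 library per condition. The WT H3K27me3 and Mtf2 libraries of a fraction were called against the same IgG library. The methods state replicates of 2, but whether they were pooled is not given in the sources used here, so no value below has an SD or a test between conditions. The first line of the series design names H3K4me3, while its later lines and the sample labels name H3K27me3.

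The ChIP libraries held between 15669899 and 67169672 unique tags, and the lists held between 1407 and 28918 peaks. Of all ChIP tags, 34.6% were unique in the pro-erythroblast Mtf2 library and 39.7% in the erythroblast one. In the H3K27me3 libraries the share was 78.4 to 85.4%. The Mtf2-null H3K27me3 libraries held 2.23 times the unique tags of WT in erythroblasts and 1.95 times in pro-erythroblasts. The false discovery rate (FDR) that the peak caller gives by exchanging ChIP and IgG was 100% for every peak of the Mtf2-null pro-erythroblast list and at least 6.94% in the WT erythroblast Mtf2 list. Of 24 erythroid genes matched, which define the sorted lineage, 1 had an H3K27me3 peak within 5 kb of a transcription start site (TSS) in WT erythroblasts (*Ank1*) and 2 had one in WT pro-erythroblasts (*Ank1* and *Spnb1*). Of all autosomal protein-coding genes, 12% and 3.39% had one. The erythroid genes' share was thus the lower in erythroblasts but not in pro-erythroblasts, on very few peaks. Peak lists cannot show the deletion of *Mtf2* itself. Intervals of shares are 95% Wilson intervals. They reflect counting error alone, because genes are not replicates and PCR copies of a tag do not count separate molecules. For a count of 0, the largest share printed is the one that 3 counts would give.

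In WT erythroblasts, axon guidance genes carried H3K27me3 at their starts in a larger share than genes in general. A peak lay within 5 kb of a TSS of 26 of the 65 members (40%, interval 29.0 to 52.1%), against 12% of all autosomal protein-coding genes. Over the gene body, from the first to the last annotated base, 28 members had a peak (43.1%, 31.8 to 55.2%), against 11.9% of all genes. Members are longer than genes in general, and peaks per Mb of gene body numbered 3.39 for members and 3.36 for all genes. The 26 were spread over 7 of the 9 families, and the Slits and Robo receptors had none. Where only peaks with a score of at least 100 were kept, 16 members remained, against 5.76% of all genes. The score is −10 log10 of the peak's p.

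**Figure D1:**
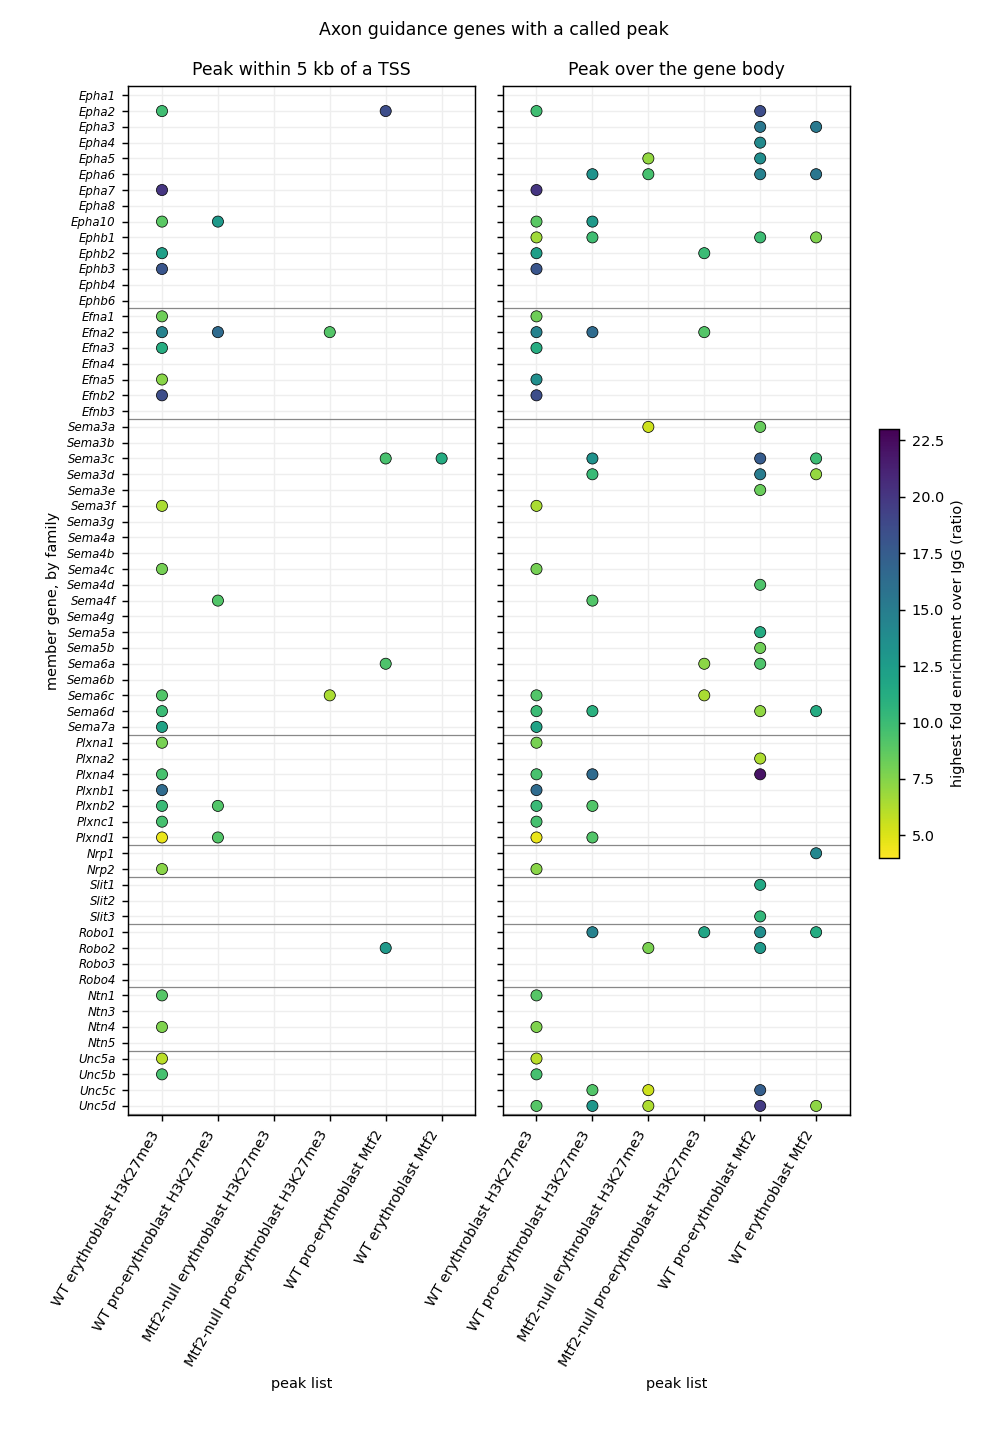
Axon guidance genes (rows, grouped by family) with a called peak in each of the 6 lists (columns), within 5 kb of a TSS on the left and over the gene body on the right. A dot marks a peak and its colour the highest fold enrichment over IgG (ratio). The WT erythroblast H3K27me3 column holds 26 dots on the left and the Mtf2-null erythroblast column holds 0, while WT pro-erythroblast Mtf2 has 4 dots on the left and 23 on the right.

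The marked starts were rich in CpG dinucleotides. The 31 WT erythroblast peaks near a member's TSS had a median GC content of 67.7% in 1 kb around the summit and a median ratio of observed to expected CpG of 0.825. Of these, 28 (90.3%) met the limits used here for a CpG island-like stretch, a GC content of at least 50% and a ratio of at least 0.6. The summit lay within 1 kb of a TSS in 27, and 23 covered a TSS. Sequences of 201 bases centred on the summit are shown for 4 members with high fold enrichment, and for a second peak at *Efna2* that was found in WT pro-erythroblasts. They are read 5′ to 3′ on the forward strand of NCBIM37, with every CG dinucleotide in capitals. The windows are chr8:8660715-8660915 (*Efnb2*), chr4:28741035-28741235 (*Epha7*), chr16:21205183-21205383 (*Ephb3*), chr10:79642313-79642513 (*Efna2*, erythroblasts) and chr10:79645058-79645258 (*Efna2*, pro-erythroblasts).
Efnb2 erythroblast H3K27me3: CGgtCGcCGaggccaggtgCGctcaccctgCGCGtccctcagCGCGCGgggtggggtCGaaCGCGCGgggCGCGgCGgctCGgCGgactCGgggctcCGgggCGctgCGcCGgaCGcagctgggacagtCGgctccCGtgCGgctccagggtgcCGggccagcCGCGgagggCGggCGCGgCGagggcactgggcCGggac
Epha7 erythroblast H3K27me3: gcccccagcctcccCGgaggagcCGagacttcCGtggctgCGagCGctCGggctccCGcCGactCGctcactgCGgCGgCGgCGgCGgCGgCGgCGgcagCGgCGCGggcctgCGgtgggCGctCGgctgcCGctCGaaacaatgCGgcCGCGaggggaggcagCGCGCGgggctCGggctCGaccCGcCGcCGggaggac
Ephb3 erythroblast H3K27me3: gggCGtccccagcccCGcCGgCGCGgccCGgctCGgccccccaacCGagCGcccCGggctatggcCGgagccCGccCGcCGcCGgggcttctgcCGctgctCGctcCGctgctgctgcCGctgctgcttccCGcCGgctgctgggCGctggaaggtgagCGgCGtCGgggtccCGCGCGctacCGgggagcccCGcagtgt
Efna2 erythroblast H3K27me3: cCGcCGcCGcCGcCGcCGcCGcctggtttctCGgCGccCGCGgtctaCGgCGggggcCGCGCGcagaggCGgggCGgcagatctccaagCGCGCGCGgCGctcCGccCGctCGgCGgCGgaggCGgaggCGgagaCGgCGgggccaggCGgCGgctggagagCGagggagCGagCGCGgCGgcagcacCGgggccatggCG
Efna2 pro-erythroblast H3K27me3: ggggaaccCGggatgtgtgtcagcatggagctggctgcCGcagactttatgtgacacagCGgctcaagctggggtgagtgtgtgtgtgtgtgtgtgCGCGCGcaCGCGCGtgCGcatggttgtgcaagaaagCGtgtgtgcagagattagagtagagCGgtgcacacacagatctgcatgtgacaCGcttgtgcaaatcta
The 4 erythroblast windows held 35, 36, 30 and 41 CG dinucleotides in that order, and the pro-erythroblast window of *Efna2*, in an intron, held 13. The erythroblast window of *Plxnb1*, which is not shown, held 26. Its enrichment was higher than that of *Efna2*, 16.4-fold against 14.6-fold. Over all 36 member peaks of the WT erythroblast list the median was 23.5 CG per window (range 0 to 41), against 12 over the 4456 autosomal peaks of the list.

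Members with a CpG island-like promoter, judged in 1 kb around the gene's 5′ end, were marked in 23 of 47 cases in WT erythroblasts (48.9%, 35.3 to 62.8%), against 18.5% of all genes with such a promoter. Among the other promoters 3 of 18 members were marked (16.7%, 5.84 to 39.2%), against 6.59% of all genes of that class. The module is itself rich in such promoters, with 47 of 65 members (72.3%) against 45.1% of all genes, and all 7 plexins, both neuropilins and all 3 Slits were in the class. The share of marked members thus lay above that of all genes in the CpG island-like class. In the other class the interval is wide and includes the share of all genes. The class was read at the 5′ end only, while a peak near any TSS counted. The 3 marked members of the other class were *Epha10*, *Ntn1* and *Sema3f*, and their WT erythroblast peaks all had CpG island-like summits. Marking of CpG-poor promoters was therefore not shown by these counts. Marked members had a median promoter GC content of 66.7%, against 60.5% for the members without a peak.

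**Figure D2:**
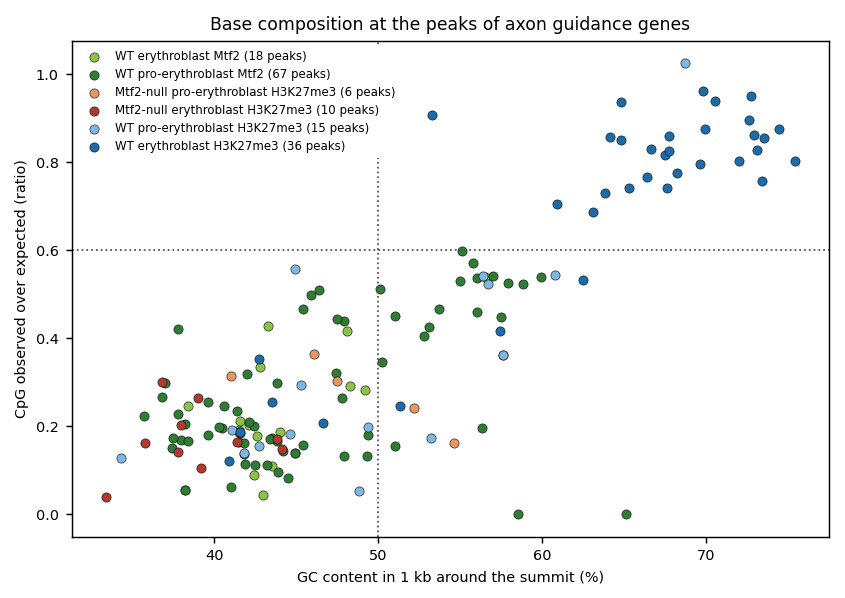
GC content (%) and CpG observed over expected (ratio) in 1 kb around the summit of every peak counted for a member, coloured by list. Dotted lines mark 50% GC and a ratio of 0.6. Most WT erythroblast H3K27me3 peaks sit at the upper right, where 28 of the 31 near a TSS lie, and no Mtf2 peak and no Mtf2-null peak lies there.

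Among the ligands, the ephrins were the family marked most often in WT erythroblasts, with 5 of 7 (71.4%, 35.9 to 91.8%). *Efnb2*, the transmembrane ephrin of arterial endothelium, had a peak at chr8:8660153-8661430 with 64 tags and 18.5-fold enrichment over IgG. Its summit lay in an exon, 42 bp upstream of the nearest of the gene's 3 annotated TSS in the direction of transcription. *Efna2*, a membrane-anchored ephrin, had a peak at chr10:79641819-79643041 with 56 tags and 14.6-fold enrichment. The lowest of the family was *Efna5*, an ephrin with a role in retinal mapping, at 7.34-fold with 117 tags. *Efna1* and *Efna3* were also marked, and *Efna4* and *Efnb3* had no peak of any list. *Efna1*, *Efna3* and *Efna4* are neighbours on chromosome 3, and each peak was counted for 1 of them only.

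Semaphorins were marked less widely, in 5 of 20 cases (25%, 11.2 to 46.9%): *Sema3f*, *Sema4c*, *Sema6c*, *Sema6d* and *Sema7a*. *Sema7a*, which is anchored to the membrane by a lipid and binds plexin C1, had the highest enrichment of the family at 11.98-fold, with 105 tags at chr9:57787376-57789362. *Sema3f*, a secreted repellent that uses neuropilin-2, had the lowest at 6.42-fold with 69 tags. The peak with most tags among members in this list, 173, belonged to *Sema6c*, a transmembrane semaphorin, at 9.13-fold. Its summit lay in an exon near the 3′ end of the gene, 2.27 kb from the nearest annotated TSS, and the peak covered none. The *Sema6c* peak near the 5′ end had 29 tags, a score of 56.05 and an FDR of 26.6%. The secreted Sema3 group was marked in 1 of 7 and the transmembrane Sema4 group in 1 of 6 cases.

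Of the 4 netrins, *Ntn1* and *Ntn4* were marked. *Ntn1*, the floor plate attractant, had 2 peaks at 8.98-fold and 6.87-fold. *Ntn4*, a netrin of basement membranes, had 1 at 7.70-fold with 96 tags. None of the 3 Slits, the secreted midline repellents, was marked. A family of this size gives little precision.

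Among the receptors, plexins stood highest, with 6 of 7 marked (85.7%, 48.7 to 97.4%), *Plxna2* being the exception. *Plxnb1*, a receptor of Sema4d, had the highest score among members in this list, 374, with 99 tags and 16.4-fold enrichment at chr9:108997246-108998950. *Plxnd1*, the endothelial receptor of Sema3e, had the lowest enrichment of any WT erythroblast peak at a member's TSS, 4.62-fold with 85 tags and an FDR of 30.0%. *Plxna4*, which signals for Sema3a and Sema6 ligands, had 139 tags at 9.54-fold. Both plexin-B genes and 2 of the 3 plexin-A genes were marked.

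Eph receptors were marked in 5 of 14 cases (35.7%, 16.3 to 61.2%), 3 of 9 EphA and 2 of 5 EphB genes. *Epha7*, a receptor for the ephrin-A ligands, had the highest enrichment among members in this list, 20.1-fold with 75 tags at chr4:28740150-28741715. *Ephb3*, which positions cells in the intestinal crypt, followed at 18.01-fold with 78 tags at chr16:21204353-21205796. *Epha10*, a receptor that lacks kinase activity, had the lowest of the family at 8.89-fold, with its summit 4.59 kb from the nearest TSS. *Epha2* and *Ephb2* were the other two.

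Neuropilin-2 (*Nrp2*), co-receptor of Sema3f and of a lymphatic growth factor, was marked at 7.34-fold with 41 tags, while *Nrp1* was not. Of the 4 Unc5 receptors, *Unc5b*, the netrin receptor of vascular endothelium, reached 9.63-fold and *Unc5a* 5.99-fold. No Robo receptor was marked (0 of 4). Family intervals overlap for every pair but plexins (48.7 to 97.4%) and semaphorins (11.2 to 46.9%). No family was tested against another.

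**Figure D3:**
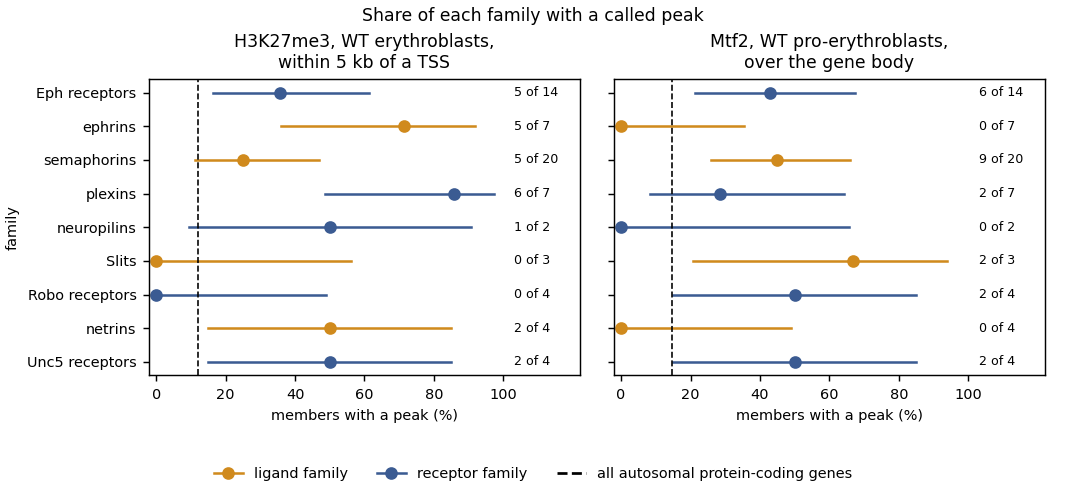
Share of each family (%) with a WT erythroblast H3K27me3 peak within 5 kb of a TSS (left) and with a WT pro-erythroblast Mtf2 peak over the gene body (right). Dots are shares, lines 95% Wilson intervals, orange marks ligand families and blue receptor families, and the dashed line is the share of all genes. Ephrins (5 of 7) and plexins (6 of 7) lead on the left, while on the right ephrins, netrins and neuropilins stand at 0.

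Over the 31 peaks the median enrichment was 8.98-fold, against 8.56-fold for the WT erythroblast peaks within 5 kb of any gene's TSS. Median tags per peak were 67 against 46 and the median score 124 against 84.2. Enrichment over IgG at members was thus close to that at other marked genes.

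WT pro-erythroblasts showed few such peaks. Of the members, 5 had an H3K27me3 peak within 5 kb of a TSS (7.69%, 3.33 to 16.8%), against 3.39% of all genes: *Efna2*, *Epha10*, *Plxnb2*, *Plxnd1* and *Sema4f*. These 6 peaks held 16 to 20 tags, had scores of 52.4 to 65.4, covered no TSS, and 1 of the 6 was CpG island-like. With only peaks of a score of at least 100, or of an FDR of at most 5%, no member remained, and only 26 and 1 of the 21327 genes did (0.122% and 0.00469%). Over the gene body the count was 14 (21.5%, 13.3 to 33.0%), against 5.08% of all genes. Peaks per Mb of gene body numbered 1.45 for members and 1.44 for all genes. The unique tags of this library were fewer than those of WT erythroblasts, 18945784 against 30054186, and the part of depth in the difference was not tested.

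Of the 5, all but *Sema4f* were also marked in WT erythroblasts (4 of 65, 6.15%, 2.42 to 14.8%), against 1.74% of all genes marked in both fractions. The same stretch was called in both fractions at only a pair of genes. At *Plxnb2*, a receptor of Sema4 ligands, the peaks shared 492 bases, with 10.1-fold enrichment and 39 tags in erythroblasts and 9.14-fold and 17 tags in pro-erythroblasts. At *Plxnd1* they shared 657 bases, at 4.62-fold with 85 tags and 5.48-fold with 17 tags, and a second pro-erythroblast peak stood at 9.14-fold. At *Efna2* the pro-erythroblast peak, chr10:79644812-79645557 with 19 tags and 16.4-fold enrichment, lay in an intron 2.93 kb past the TSS, downstream of the erythroblast peak over the promoter. At *Epha10* the peaks were also separate, with 12.8-fold enrichment and 20 tags in pro-erythroblasts. *Sema4f*, a transmembrane semaphorin, stood at 9.14-fold with 16 tags.

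In Mtf2-null erythroblasts no member had an H3K27me3 peak in the 5 kb window around a TSS (0 of 65, which allows a share of up to 4.62%), against 1.6% of all genes. A WT and no null peak in this window was therefore found in 26 of the 65 members, against 11.8% of all genes. Among genes marked in WT erythroblasts, no null peak was found at 26 of 26 members (100%, 87.1 to 100%) and at 2520 of 2551 genes (98.8%), so members were near the other marked genes in this. The null library had 2.23 times the unique tags. A missing peak is the absence of a call and not a measured absence of the mark. *Efnb2*, *Epha7*, *Ephb3* and *Plxnb1*, for example, had no peak of the null lists in either window. With peaks of a score of at least 100 the count of members with a WT and no null peak was 16, and the share of all genes was not computed there.

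The peaks that were called at members in Mtf2-null erythroblasts lay elsewhere. Within gene bodies there were 10 peaks at 6 members (9.23%, 4.30 to 18.7%), against 4.13% of all genes: *Epha5*, *Epha6*, *Robo2*, *Sema3a*, *Unc5c* and *Unc5d*. All 10 were intronic, with a median distance of 118 kb from a TSS, a median GC content of 38.5%, no CpG island-like stretch and FDRs from 0 to 0.45%. None shared a base with a WT H3K27me3 peak. All 6 genes are 200 kb or longer, and of the 17 members of that length 6 had a peak (35.3%, 17.3 to 58.7%), against 36.9% of all genes of that length. The share among long members was thus near that of other long genes.

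*Epha6*, an Eph receptor of the nervous system with 4 null peaks, reached 9.58-fold with 98 tags. *Robo2*, a Slit receptor, stood at 7.84-fold with 50 tags and *Epha5* at 7.08-fold with 69 tags. *Sema3a*, the secreted repellent that acts through neuropilin-1, had the most tags of these, 189, at 5.42-fold. *Unc5d* alone had both a WT and a null peak over its body in erythroblasts, at 8.98-fold with 21 tags in WT and 6.37-fold with 100 tags in the null, at separate places in its introns.

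In Mtf2-null pro-erythroblasts 2 members had an H3K27me3 peak within 5 kb of a TSS (3.08%, 0.848 to 10.5%), against 1.27% of all genes, and 5 had one over the body (7.69%, 3.33 to 16.8%), against 2.38%. Peaks per Mb of gene body numbered 0.582 for members and 0.572 for all genes. All 6 member peaks had an FDR of 100%, as did the whole list. A WT and no null peak near a TSS in pro-erythroblasts was found in 4 of the 65 members (6.15%), against 3.21% of all genes. Among genes marked in WT there, 4 of 5 members (80%, 37.6 to 96.4%) and 685 of 724 genes (94.6%) had no null peak. The fifth member was *Efna2*, where the WT and null peaks shared 582 bases and their summits lay 5 bp apart. It had 19 tags and 16.4-fold enrichment in WT and 29 tags and 9.12-fold in the null, or 1.00 and 0.783 tags for each 1000000 unique tags. *Sema6c* had the other null peak, at 6.38-fold with 25 tags. Over the body the highest were *Robo1*, a Slit receptor, at 11.9-fold with 26 tags and *Ephb2* at 10.0-fold for each of 2 peaks. *Robo1* also had a WT pro-erythroblast peak, at 14.6-fold with 17 tags, in another part of the gene.

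Mtf2 peaks of members in WT cells lay mostly inside long genes, and near any annotated TSS the members' share was near that of all genes. In pro-erythroblasts Mtf2 lay within 5 kb of the TSS of 4 members (6.15%, 2.42 to 14.8%), against 8.36% of all genes, and in erythroblasts 1 had one (1.54%, 0.272 to 8.21%), against 1.47%. Over gene bodies there were 23 members in pro-erythroblasts (35.4%, 24.9 to 47.5%), against 14.53% of all genes, and 9 in erythroblasts (13.8%, 7.46 to 24.3%), against 4.31%. Of the 66 pro-erythroblast peaks over member bodies 65 were intronic and none was CpG island-like.

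The higher share over gene bodies went with gene length. Members had a median length of 56.6 kb, against 15.6 kb for all genes. In the length classes under 20 kb, 20 to 50, 50 to 100, 100 to 200 and 200 kb or more, 0 of 18, 1 of 14, 1 of 3, 6 of 13 (46.2%) and 15 of 17 members (88.2%) had a pro-erythroblast Mtf2 peak. All genes of the same classes had one in 3.73%, 12.8%, 28%, 47.8% and 81.8% of cases. Within a length class, the share of members with Mtf2 was thus near that of other genes, and the number of peaks per Mb of gene was 6.40 for members and 6.91 for all genes. In erythroblasts, 7 of the 17 members of 200 kb or more had a Mtf2 peak (41.2%, 21.6 to 63.99%), against 39% of all genes of that length.

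**Figure D4:**
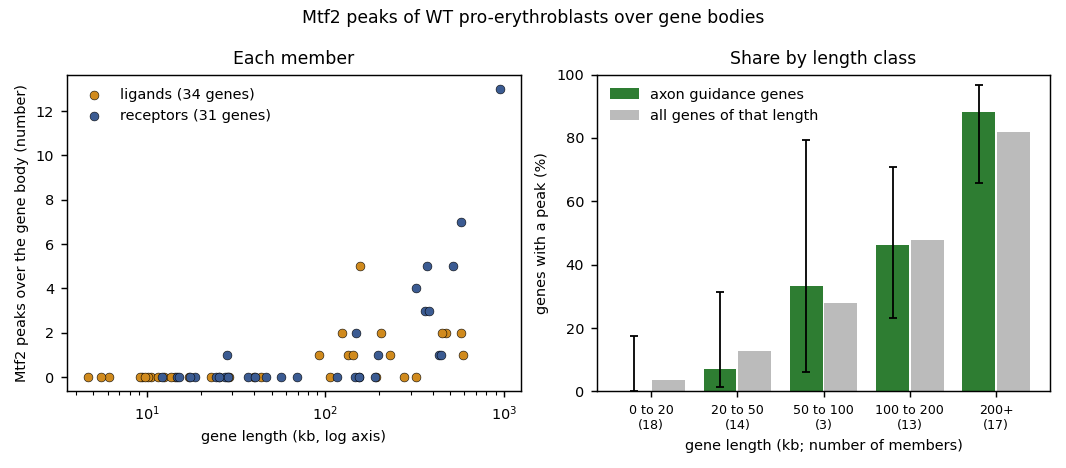
Left, number of WT pro-erythroblast Mtf2 peaks over each member's body against gene length (kb, log axis), ligands in orange and receptors in blue. Right, share of genes with a peak (%) by length class for members (green, 95% Wilson intervals) and all genes (grey). Both rise with length, from 0 of 18 members under 20 kb to 15 of 17 members of 200 kb or more, with *Epha6* highest at 13 peaks.

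The WT erythroblast H3K27me3 list did not show this rise with length among members. In that list 6 of 18 (33.3%), 9 of 14 (64.3%), 2 of 3 (66.7%), 6 of 13 (46.2%) and 5 of 17 members (29.4%) had a peak over the body in the same classes, against 7.45%, 11.4%, 17.3%, 26.3% and 38.2% of all genes. The members' share was above that of all genes in each class under 200 kb and below it in the longest class, and the share of all genes rose with length. In WT pro-erythroblasts 1 of 18 (5.56%), 4 of 14 (28.6%), 0 of 3, 1 of 13 (7.69%) and 8 of 17 members (47.1%) had a body peak. All genes of the same classes had one in 1.67%, 4.22%, 7.47%, 14.6% and 34.1% of cases. In Mtf2-null pro-erythroblasts the counts were 2 of 18 (11.1%), 0 of 14, 0 of 3, 2 of 13 (15.4%) and 1 of 17 (5.88%). The shares of all genes there were 0.624%, 2.35%, 4.29%, 6.99% and 14%. In Mtf2-null erythroblasts no member under 200 kb had a body peak, against 0.341%, 2.79%, 6.74% and 15.8% of all genes in the shorter classes. The shares that these counts of 0 allow, up to 16.7%, 21.4%, 100% and 23.1%, lie above those of all genes.

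By family, Mtf2 was found over the bodies of 6 of 14 Eph receptors, 9 of 20 semaphorins, 2 of 7 plexins, 2 of 3 Slits, 2 of 4 Robo and 2 of 4 Unc5 receptors in pro-erythroblasts, and over none of the ephrins, netrins or neuropilins. Ephrins had a median length of 9.41 kb and Slits of 323 kb. The order of the families thus differed from that for H3K27me3 in erythroblasts, where ephrins and plexins led.

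Members bound by Mtf2 inside the gene were mostly not those marked at the start. A WT erythroblast H3K27me3 peak at a TSS was found in 3 of the 23 members with a pro-erythroblast Mtf2 peak over the body (13.04%, 4.54 to 32.1%), namely *Epha2*, *Plxna4* and *Sema6d*, against 14.2% of all genes with such a Mtf2 peak. It was found in 23 of the 42 members without one (54.8%, 39.9 to 68.8%), against 11.6% of all genes without one. These groups also differ in length, with a median of 359.6 kb with a Mtf2 peak and 25.2 kb without, and the part of length in the difference was not tested.

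*Epha6* had the most pro-erythroblast Mtf2 peaks over its body, 13, and *Unc5d* had 7. *Sema3c*, a semaphorin of the cardiac outflow tract, *Robo2* and *Unc5c* had 5 each. The highest enrichments were 22.1-fold at *Plxna4* with 44 tags, 19.7-fold at *Unc5d* with 43 tags and 18.6-fold at *Epha2* with 32 tags. *Epha4*, a receptor known for guiding motor axons, had the highest score, 789, with 253 tags at 13.96-fold. *Ephb1*, which directs retinal axons at the chiasm, had the most tags in a peak of this list, 292.

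Of the pro-erythroblast Mtf2 peaks near a TSS, the *Epha2* peak lay in an exon 3.87 kb from the nearest annotated TSS. That place is far inside the gene, at 0.694 of its length from the 5′ end. *Robo2* followed at 12.8-fold with 21 tags, *Sema3c* at 9.55-fold with 25 tags 3.62 kb upstream, and *Sema6a*, a transmembrane ligand of plexin-A receptors, at 9.31-fold with 35 tags. The *Sema6a* peak also lay far inside its gene, at 0.628 of the length. With the gene's 5′ end only, *Robo2* and *Sema3c* remained, and with a window of 1 kb the count was 0. *Sema3c* was the 1 member with Mtf2 near a TSS in erythroblasts, at 11.3-fold with 15 tags, and it shared 568 bases with the pro-erythroblast peak. In erythroblasts the highest body peaks were at *Epha6* (15.6-fold, 33 tags), *Epha3* (15.3-fold, 37 tags) and *Nrp1* (14.2-fold, 19 tags), the co-receptor of Sema3a and of vascular endothelial growth factor. Of 18 erythroblast Mtf2 peaks at members, 13 overlapped a pro-erythroblast Mtf2 peak, at *Epha6*, *Ephb1*, *Robo1*, *Sema3c*, *Sema3d* and *Sema6d*.

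H3K27me3 and Mtf2 peaks shared bases in pro-erythroblasts and not in erythroblasts. In WT pro-erythroblasts 6 of the 15 H3K27me3 peaks at members overlapped a Mtf2 peak (40%, 19.8 to 64.3%), against 707 of 1646 H3K27me3 peaks at all genes (43.0%). They lay at *Ephb1* (881 shared bases), *Plxna4* (812), *Robo1* (641), *Sema3c* (343), *Sema3d* (913) and *Unc5c* (635), all in introns. The summits of the pairs lay 39 bp apart at *Plxna4* and 6 bp apart at *Sema3c*. In WT erythroblasts 0 of 36 did (which allows a share of up to 8.33%), against 18 of 3442 (0.523%). The members' shares were thus near those of all genes in both fractions.

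At those 6 places the Mtf2 peak held more tags than the H3K27me3 peak, in a library of 29009650 against 18945784 unique tags. Each Mtf2 peak was also the wider, from 971 against 812 bp at *Plxna4* to 6583 against 881 bp at *Ephb1*. Its tags were thus counted over more bases. *Plxna4* had 16.4-fold enrichment and 21 tags for H3K27me3 and 22.1-fold and 44 tags for Mtf2. *Robo1* had 14.6-fold and 17 tags against 13.7-fold and 106 tags, and *Sema3d*, a secreted semaphorin, 10.1-fold and 23 tags against 15.1-fold and 214 tags. *Sema3c* had 13.3-fold and 22 tags against 14.1-fold and 32 tags. *Ephb1* had 9.80-fold and 25 tags against 10.0-fold and 292 tags, and *Unc5c*, a netrin receptor, 9.14-fold and 17 tags against 6.62-fold and 50 tags. Both marks were called against the same IgG library, and the part of that control in the overlap was not tested.

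Many intronic peaks lay on sequence that occurs many times in the genome. For each summit, 5 words of 25 bases spaced 20 bases apart were counted by exact match on both strands of the whole assembly, and the median copy number was taken. At the 36 WT erythroblast H3K27me3 peaks of members, 35 had a median of 1 copy, the exception being an intronic peak of *Efna5* with 23407 copies. At the 67 WT pro-erythroblast Mtf2 peaks the median was 2080 copies, 61 had 100 or more (91.0%) and 1, at *Sema4d*, had 1 copy. The positions of the genes themselves were not like this, since the same count at gene midpoints gave 100 or more copies in 2 of 65 members (3.08%) and 3.75% of all genes.

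The lists differed in this respect, and members are given beside all autosomal peaks. Summits with 100 or more copies made up 16 of 18 WT erythroblast Mtf2 peaks of members (88.9%), against 85.6% of that list on the autosomes, and 83.5% for the pro-erythroblast Mtf2 list. For Mtf2-null erythroblast H3K27me3 they were 6 of 10 (60%), against 68.2%, and none of the 10 had 1 copy. For WT pro-erythroblast H3K27me3 they were 6 of 15 (40%), against 63.1%. In WT erythroblasts, by contrast, 1 of 36 (2.78%) stood against 7.27% of the list.

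The 6 WT pro-erythroblast H3K27me3 peaks that overlapped Mtf2 had a median of 1766.5 copies and none had 1 copy, whereas 7 of the 9 that did not overlap had 1 copy. All 6 Mtf2-null pro-erythroblast peaks of members had 1 copy, while 204 of the 1331 autosomal peaks of that list had 100 or more (15.3%). Where only peaks with 1 copy were kept, the members with a WT erythroblast H3K27me3 peak at a TSS remained 26, while those with a pro-erythroblast Mtf2 peak over the body went from 23 to 1. Members with a pro-erythroblast Mtf2 peak within 5 kb of a TSS went from 4 to 0. The part of repeated sequence in the Mtf2 and Mtf2-null peaks was not tested beyond these counts. Summit windows of 3 repeated places are shown on the forward strand of NCBIM37, with CG in capitals as above, for comparison with the CpG-rich starts. They are chr6:32135990-32136190 (*Plxna4*, Mtf2), chr5:17115467-17115667 (*Sema3c*, H3K27me3) and chr16:60431605-60431805 (*Epha6*, Mtf2-null H3K27me3).
Plxna4 pro-erythroblast Mtf2: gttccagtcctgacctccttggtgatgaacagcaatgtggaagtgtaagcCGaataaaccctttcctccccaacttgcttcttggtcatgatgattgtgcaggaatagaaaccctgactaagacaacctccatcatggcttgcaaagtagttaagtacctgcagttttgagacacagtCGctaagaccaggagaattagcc
Sema3c pro-erythroblast H3K27me3: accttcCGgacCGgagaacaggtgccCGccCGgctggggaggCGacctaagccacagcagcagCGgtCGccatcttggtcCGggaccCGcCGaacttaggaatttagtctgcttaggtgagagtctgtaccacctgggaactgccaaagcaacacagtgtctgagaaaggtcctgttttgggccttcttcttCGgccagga
Epha6 Mtf2-null erythroblast H3K27me3: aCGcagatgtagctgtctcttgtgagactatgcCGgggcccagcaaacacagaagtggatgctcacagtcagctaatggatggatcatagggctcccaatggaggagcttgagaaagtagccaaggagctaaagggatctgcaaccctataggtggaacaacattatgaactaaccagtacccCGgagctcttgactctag
They held 2, 11 and 3 CG dinucleotides and had 35, 1887 and 5051 copies in that order. Over all member peaks the median window held 2 CG for pro-erythroblast Mtf2 and 1 CG for Mtf2-null erythroblast H3K27me3, the same as over each whole list.

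**Figure D5:**
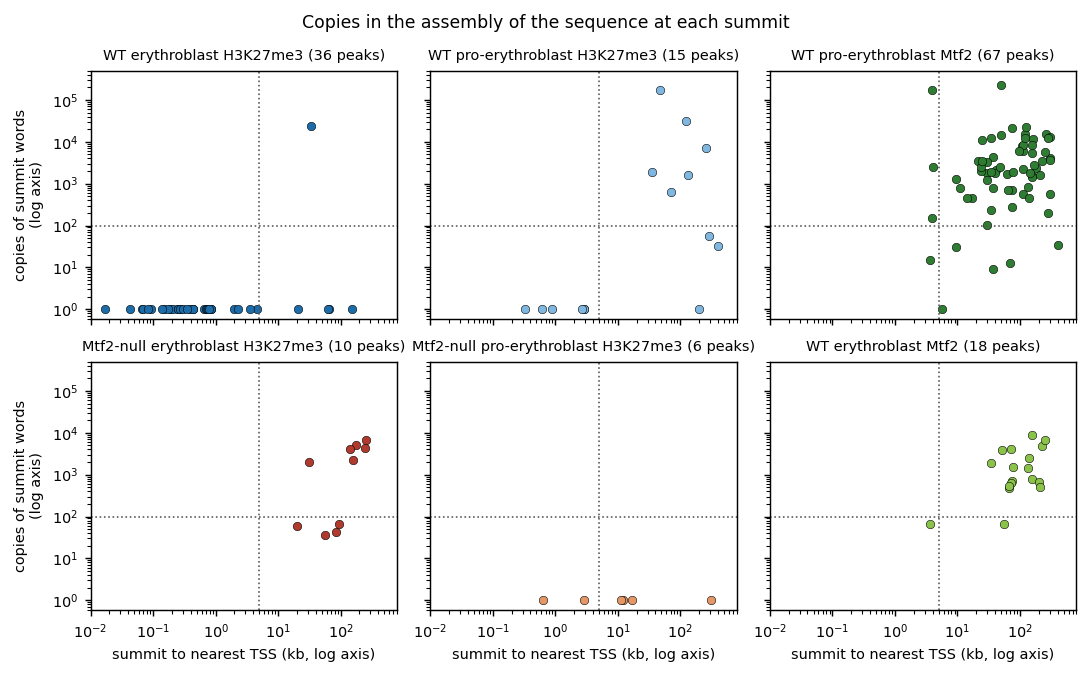
Copies in the assembly of the sequence at each member peak's summit (median of 5 words, log axis) against the distance from the summit to the gene's nearest TSS (kb, log axis), 1 panel per list. Dotted lines mark 5 kb and 100 copies. WT erythroblast H3K27me3 peaks lie along the line of 1 copy and mostly near a TSS, while WT pro-erythroblast Mtf2 peaks lie far from a TSS, with 61 of 67 at 100 or more copies.

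Ligands and receptors were compared in every list and window. For WT erythroblast H3K27me3 at a TSS, 12 of 34 ligands (35.3%) and 14 of 31 receptors (45.2%) were marked, a difference of -9.87 percentage points (95% Newcombe interval -31.8 to 13.3). Over the body the difference was -16.3 points (-37.8 to 7.41), with 12 ligands and 16 receptors. For pro-erythroblast Mtf2 over the body, 11 ligands and 12 receptors gave -6.36 points (-28.3 to 16.2). The intervals of the 12 comparisons all included 0, so no difference was detectable with this number of genes, and differences of the sizes in those intervals remain possible.

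Receptors had the larger count for every list over the body except Mtf2-null pro-erythroblast H3K27me3, where 3 ligands and 2 receptors had a peak. The other body counts, ligands first, were 5 and 9 for WT pro-erythroblast H3K27me3, 1 and 5 for Mtf2-null erythroblast H3K27me3, and 3 and 6 for erythroblast Mtf2. Receptor genes are also longer, with a median of 115 kb against 34.3 kb for ligands, and the part of length was not tested. With peaks of a score of at least 100, the difference for WT erythroblast H3K27me3 at a TSS turned to 3.89 points.

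Known ligand and receptor pairs could be set side by side in WT erythroblasts. *Sema7a* and its receptor *Plxnc1* were both marked at a TSS, as were *Sema3f* and its co-receptor *Nrp2*, and *Ntn1* with *Unc5a* and *Unc5b*. *Sema4d* was not marked at its start while its receptor *Plxnb1* was, and *Sema3e* was not while *Plxnd1* was. Slits and Robo receptors had no such peak on either side. These pairs are named from general knowledge and were chosen with the calls in view.

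Other genes of the pathway, which are no members, were followed as 4 lists with 77 of 78 symbols matched. In WT erythroblasts 27 of the 77 had an H3K27me3 peak within 5 kb of a TSS, in WT pro-erythroblasts 8, in Mtf2-null erythroblasts 1 and in Mtf2-null pro-erythroblasts 2, against the 12%, 3.39%, 1.6% and 1.27% of all genes given above. Co-factors of netrin and repulsive guidance were marked in 6 of 10 cases in WT erythroblasts (*Neo1*, *Rgma*, *Rgmb*, *Ntng2*, *Lrrc4* and *Dscam*) and adhesion co-receptors in 2 of 9 (*Ptprf* and *Ptprs*). Other guidance ligands and receptors were marked in 7 of 13 (*Cxcr4*, *Kdr*, *Ptch1*, *Smo*, *Cdon*, *Rtn4r* and *Lingo1*), and cytoplasmic effectors in 12 of 45 (*Srgap1*, *Trio*, *Kalrn*, *Ablim1*, *Ablim3*, *Dpysl5*, *Rnd1*, *Pak1*, *Pak6*, *Fes*, *Farp1* and *Enah*). *Rgma*, a repulsive guidance molecule that binds neogenin, stood at 16.4-fold with 67 tags. Mtf2 lay over the bodies of 23 of the 77 in pro-erythroblasts and 9 in erythroblasts, against 14.53% and 4.31% of all genes. The part of gene length and of repeated sequence in these counts was not tested.

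No peak of any list was found at 17 members in either window (26.2%, 17.0 to 37.95%), against 65.9% of all genes. They were *Epha1*, *Epha8*, *Ephb4* and *Ephb6* among the Eph receptors, *Efna4* and *Efnb3* among the ephrins, *Sema3b*, *Sema3g*, *Sema4a*, *Sema4b*, *Sema4g* and *Sema6b* among the semaphorins, and *Slit2*, *Robo3*, *Robo4*, *Ntn3* and *Ntn5*. Their median length was 14.8 kb and 8 of the 17 had a CpG island-like promoter (47.1%). *Slit2*, at 323 kb, was the longest of them and 1 of the 2 members of 200 kb or more without a pro-erythroblast Mtf2 peak. *Ephb4*, the venous receptor of ephrin-B2, was thus unmarked where *Efnb2* was marked in WT erythroblasts. Members are longer than genes in general (median 56.6 against 15.6 kb). The part of length in their lower share without any peak was not tested.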

How the data were processed

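H3K27me3 and Mtf2 were mapped by ChIP-seq in sorted FL cells. The authors aligned reads with Bowtie2 2.2.3 to mm9, and MACS 1.3.7 then called peaks against the IgG library of the fraction and genotype, and per the file headers the p cutoff was 1e-05, the band width 300 bp and the model fold 32. The names of the alignments in those headers carry the words masked and encBL, whose meaning is not given in the sources used here. The deposited tag counts are the unique ChIP tags in each peak as the authors' peak caller gave them, not scaled for depth. The fold enrichment was deposited as a ratio over the local IgG background, and the score as −10 log10 of the MACS p, while the deposited FDR is a percent from exchanging ChIP and IgG. IgG libraries entered only through these values.

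Genes, exons and TSS came from GENCODE M1 on NCBIM37, and coordinates are 1-based. A gene had a peak when at least 1 base of it lay within 5 kb of any annotated TSS, or over the gene body. CpG content was read in 1 kb. Members and lists were chosen with earlier results of these data known. Values are given for the 3 members with the highest fold in each list and window, the highest and lowest of each family in WT erythroblasts, members marked in both fractions or genotypes, members with Mtf2 near a TSS or sharing bases with H3K27me3, and the 3 with the most Mtf2 peaks. Peaks singled out for most tags, highest score or copy number, and the whole count of copies with the alternative of keeping summits that occur once, were chosen after the data were seen. With 1 library per condition no test was run. The alternatives kept peaks with a score of at least 100 or with FDR values up to 5%, or took equal numbers of top-scoring peaks, the summit in place of any base, other windows, and the gene's 5′ end only. The overlap step was tested on simulated intervals, and the peaks it found equalled those of a direct search in 400 of 400 searches. Steps ran in Python 3.11.15 with matplotlib 3.10.9, pysam 0.24.0, scipy 1.17.1, pandas 2.3.3 and numpy 2.4.6.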

Additional observations from a re-analysis of the deposited data

How the results depend on the processing

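In all, 99 alternatives were computed over 15 results, and 54 stayed within 1.5 times the reported count, or within its interval, while 45 did not. Members with a WT erythroblast H3K27me3 peak at a TSS, and those with a WT and no Mtf2-null peak there, numbered 16 in place of 26 with a score of at least 100, with an FDR of at most 5% and with the 1407 top-scoring peaks of each list, and the same 16 members were kept in each. The share of all genes with a WT erythroblast peak at a TSS was then 5.76%, 5.7% and 6.07%. For a WT and no Mtf2-null peak the share of all genes was not computed under these alternatives. In WT pro-erythroblasts both counts were 0 under those alternatives, and with a window of 1 kb 3 members had a WT peak. Mtf2-null pro-erythroblast members at a TSS numbered 0 with the score or FDR limit and 1 with a window of 1 kb or with the 5′ end only. Members with pro-erythroblast Mtf2 over the body numbered 15 with the score limit, 4 with equal numbers of peaks and 1 with summits that occur once. For erythroblast Mtf2 these were 1 with the score limit, 0 with the FDR limit, 2 with equal numbers and 0 with summits that occur once. The ligand minus receptor difference was 3.89 points under the first 3 alternatives, -9.58 with the 5′ end only and -6.64 with 1 kb. No paired analysis was possible because each condition has 1 library. Depth, which differs between libraries, limits what a missing peak can show.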

Other observations

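Some member peaks lay nearer the start of another gene. Of the 66 pro-erythroblast Mtf2 peaks over member bodies, 6 had their nearest TSS in another gene, 5 of them inside *Epha6* nearest *Arl6* and 1 inside *Plxna4* nearest *1700012A03Rik*. No peak was counted for more than 1 member, although *Sema3b* and *Sema3f*, and *Robo3* and *Robo4*, are neighbours on chromosome 9.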
